A study of Mus musculus with 8 samples.

Results

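The genes described here are 9 genes of the pathway by which cells display peptides on major histocompatibility complex (MHC) class I molecules: H2-K1, H2-D1, B2m, Tap1, Tap2, Tapbp, Psmb8, Psmb9 and Psmb10. They were taken by symbol and not by a cut on their values, with earlier results of these data known. They are 9 of 18193 measured genes, with products that make up the classical class I molecule, load it with peptide or cut that peptide. Other measured genes that load or cut peptides are described below. The 26 probe sets of the 9 genes are those of 45037 to which the array's annotation gives only that gene's symbol. A further 3 that also carry other symbols were left out. Each gene is represented by its brightest probe set, judged by the mean over both diets.

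The RNA was that of dorsal skin from hairless mice of the strain Hos:HR-1, all female and aged 10 weeks at sampling. The control arrays (n = 4) came from mice given AIN-93G, a purified rodent diet, and the collagen arrays (n = 4) from mice given the same diet supplemented by 2.0 g of collagen hydrolysate (a digest of fish-scale collagen to small peptides) per 100 g, in both cases for 1 week. Strain, sex, age, tissue and base diet were common to all 8 arrays. The comparison asks whether the peptide supplement changed transcript levels in skin. The labels call the arrays of a diet biological replicates and do not say which mouse or cage each came from, so the p-values measure the spread between these arrays.

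Nearly all nucleated cells cut a share of their proteins into peptides with the proteasome, pump them into the endoplasmic reticulum through the TAP transporter and fit them into the groove of a class I heavy chain bound to beta-2 microglobulin, for inspection by CD8 T cells. Interferons raise the genes of this pathway together, largely through STAT and IRF factors and the coactivator NLRC5, and exchange the standard catalytic subunits of the proteasome for those encoded by Psmb8, Psmb9 and Psmb10. In skin the pathway runs in keratinocytes and fibroblasts as well as in resident immune and endothelial cells.

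Sequence just upstream of the gene starts is shown because most of the 9 genes varied together from array to array in the deposited values, as described below. It was taken from the RefSeq promoter table of build GRCm38.p6, which matched 8 of the 9 genes; Tap2 was not matched. Each line runs 5′ to 3′ on the strand of the gene named, and capitals mark the motif letters found. H2-K1 is shown at chr17:34000377-34000478 on the minus strand and H2-D1 at chr17:35262903-35263004 on the plus strand. B2m is shown at chr2:122147527-122147627 and Psmb8 at chr17:34198065-34198135, both on the plus strand. Psmb9 and Tap1 start 225 bases apart and run in opposite directions, and the whole stretch between them is shown on the strand of Tap1 at chr17:34187331-34187555.
H2-K1: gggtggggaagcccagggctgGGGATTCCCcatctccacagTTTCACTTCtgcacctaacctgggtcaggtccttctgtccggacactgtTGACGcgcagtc
H2-D1: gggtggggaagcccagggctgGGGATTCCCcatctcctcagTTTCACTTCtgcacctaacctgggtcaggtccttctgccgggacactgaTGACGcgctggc
B2m: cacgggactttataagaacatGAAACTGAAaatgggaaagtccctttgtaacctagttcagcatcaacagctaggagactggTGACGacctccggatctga
Psmb8: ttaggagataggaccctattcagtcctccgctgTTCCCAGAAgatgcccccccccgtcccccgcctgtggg
Tap1: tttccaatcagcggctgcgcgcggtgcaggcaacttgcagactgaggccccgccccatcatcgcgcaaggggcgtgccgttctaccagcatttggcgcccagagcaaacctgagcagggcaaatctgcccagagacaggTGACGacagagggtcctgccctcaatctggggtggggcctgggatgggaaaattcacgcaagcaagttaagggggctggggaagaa

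The H2-K1 and H2-D1 stretches were identical at 96 of 102 aligned bases (94.1%). Both hold GGGATTCCC, an NF-kappaB motif, then TTTCACTTC, which is GAANNGAAA read on the opposite strand, and then TGACG, the core of a cyclic AMP response element. GGGATTCCC was found in 99 of 32851 windows of 250 bases before a start (0.301%), and among the 8 genes matched in H2-K1 and H2-D1 only. B2m holds GAAACTGAA, of the form GAAANNGAA found in interferon-stimulated response elements, which 7.13% of windows hold. GAANNGAAA, another spacing of the same repeat, was in 6.31% of windows and in 2 of the 8 genes. Psmb8 holds TTCCCAGAA, of the form TTCNNNGAA bound by STAT factors, which 7.02% of windows hold. TGACG was in 17.8% of windows and in 5 of the 8 genes, with Psmb9 and Tap1 sharing the same site at chr17:34187470-34187474. None of the motifs was found for Tapbp or Psmb10. As described below, the median r over the arrays with the other 8 genes was 0.833 for Tapbp and 0.875 for Psmb10. For the genes with a match it ran from 0.603 (B2m) to 0.864 (H2-K1 and Psmb8). Whether the motifs go with the covariation was not tested. All motifs were searched on both strands, and their letters were settled with these sequences in view. A match is a description of the letters and not of a bound site. In the gene order of the same build, Psmb9, Tap1, Psmb8 and Tap2 are consecutive coding genes of chromosome 17. Tapbp, H2-K1 and H2-D1 lie elsewhere on that chromosome, B2m on chromosome 2 and Psmb10 on chromosome 8.

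The deposited log2 values of the authors lay between 6.56 and 14.46, and probe set means had a median of 8.193. The range of a gene over the 8 arrays had a median of only 9.16e-06 on this scale. Differences are therefore given on the deposited scale, or in units of the SD within diets, and not as fold changes. The sources used here do not say how the values were summarised and normalised. Markers of the labelled tissue were bright, with Krt10 at a mean of 14.39 and Krt14 at 14.19 for the epidermis and Col3a1 at 14.21 and Col1a2 at 14.13 for the dermis. Markers of skeletal muscle were bright as well, Acta1 at 13.99, so the samples held muscle RNA.

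None of the 9 class I genes differed between diets after adjustment over all genes. limma with Benjamini-Hochberg adjustment called 0 of 18193 genes at an adjusted p under 0.05 (0%), and each of the 9 had an adjusted p of 0.999. At an unadjusted p under 0.05 the same fit gave 635 genes (3.49%), 224 of them lower with collagen (1.23%) and 411 higher (2.26%), and none was among the 9, whose unadjusted p ran from 0.187 for Psmb8 to 0.791 for Tap1. The diets overlapped for all 9 genes, against 368 of all genes (2.02%) without overlap. All 9 had a lower mean with collagen as deposited, a direction shared by 47.1% of all genes. With each array centred on its median, 3 of the 9 (Psmb8, Psmb9 and Psmb10) and 5.38% of all genes lay lower. Centring raised the difference of every gene by the same amount, taking that of H2-K1 from -6.05e-07 to 5.46e-05. Only genes with larger negative differences could therefore stay lower, and these 3 had the largest of the 9. Quantile normalization turned Psmb10 above 0 (6.29e-05), so under both scalings only Psmb8 and Psmb9 kept the lower mean. The median difference over the 9 was -0.858 within-diet SD, beside 0.0517 over all genes.

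Of the genes for the class I molecule itself, H2-K1 and H2-D1 encode the heavy chains that hold the peptide. H2-K1 read 13.6024274, 13.6024288, 13.6024286 and 13.6024286 in control arrays 1 to 4 and 13.6024275, 13.6024272, 13.6024275 and 13.6024288 in collagen arrays 1 to 4. Its arrays formed separate upper and lower sets of 4 each, the upper with control 2, 3 and 4 and collagen 4, the lower with control 1 and collagen 1, 2 and 3. Its difference was -6.05e-07 ± 5.09e-07 (SE), with an exact permutation p of 0.4.

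H2-D1 read 13.9863044, 13.9863054, 13.9863053 and 13.9863042 in the control arrays and 13.9863034, 13.9863035, 13.9863036 and 13.9863056 in the collagen arrays. Collagen 1, 2 and 3 lay below every control array, and collagen 4 lay above every one of them. The difference of H2-D1 was -8.02e-07 ± 6.27e-07 (SE), with an exact permutation p of 0.229; the smallest two-sided p that 4 against 4 arrays allow is 0.0286. H2-K1 and H2-D1 are close in sequence, and all 4 probe sets of H2-K1 and 7 of 9 of H2-D1 carry the ending _x_at, by which the array's maker marks probes that may also bind other transcripts. Signal of the heavy chains may therefore be shared between them and with other class I genes.

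B2m encodes the invariant light chain, beta-2 microglobulin. It read 13.9575401, 13.9575415, 13.9575423 and 13.9575415 in the control arrays and 13.9575401, 13.9575408, 13.9575410 and 13.9575410 in the collagen arrays. Control 3 was highest, control 1 and collagen 1 were lowest, and collagen 4 lay with the other collagen arrays, unlike in the other 8 genes. The B2m difference was -6.2e-07 ± 5.37e-07 (SE), with an exact permutation p of 0.286.

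Tap1 and Tap2 encode the paired chains of the transporter that moves peptides into the endoplasmic reticulum. Tap1 read 10.088582, 10.088749, 10.088699 and 10.088815 in the control arrays and 10.088598, 10.088650, 10.088692 and 10.088831 in the collagen arrays. Each diet held a low array (control 1, collagen 1) and a high array (control 4, collagen 4), and the diets covered nearly the same range. The Tap1 difference was -1.87e-05 ± 6.75e-05 (SE), with an exact permutation p of 0.83. It turned above 0 without control 4 (1.6e-05) and without collagen 1 (1.3e-05).

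Tap2 read 9.947528, 9.947685, 9.947678 and 9.947737 in the control arrays and 9.947523, 9.947580, 9.947632 and 9.947752 in the collagen arrays. The same arrays stood at the ends as for Tap1. For Tap2 the difference was -3.56e-05 ± 6.38e-05 (SE), with an exact permutation p of 0.629. It ran from -2.59e-06 without collagen 1 to -7.89e-05 without collagen 4.

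Tapbp encodes tapasin, which holds the empty class I molecule at the transporter and edits its peptide. It read 11.150010, 11.150025, 11.150037 and 11.150053 in the control arrays and 11.150014, 11.149996, 11.150007 and 11.150045 in the collagen arrays. Control 4 and collagen 4 were highest and collagen 2 was lowest, inside a range of 5.72e-05. The Tapbp difference was -1.57e-05 ± 1.34e-05 (SE), with an exact permutation p of 0.286.

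Psmb8, Psmb9 and Psmb10 encode the catalytic subunits of the immunoproteasome and had the widest ranges of the 9. Psmb8 read 10.996305, 10.996801, 10.996658 and 10.996941 in the control arrays and 10.995575, 10.995695, 10.996140 and 10.997139 in the collagen arrays. Collagen 1, 2 and 3 lay below every control array and collagen 4 above every one. The Psmb8 difference was -0.000539 ± 0.000366 (SE), with an exact permutation p of 0.229.

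Psmb9 read 10.476420, 10.476626, 10.476851 and 10.477049 in the control arrays and 10.475949, 10.476186, 10.476463 and 10.476993 in the collagen arrays. Control 4 was highest and collagen 4 next, collagen 1 and 2 were lowest, and collagen 3 lay just above control 1. Its difference was -0.000339 ± 0.000252 (SE), with an exact permutation p of 0.229.

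Psmb10 read 10.521169, 10.521264, 10.521245 and 10.521345 in the control arrays and 10.521079, 10.520990, 10.521132 and 10.521387 in the collagen arrays. As for Psmb8, collagen 1, 2 and 3 were the lowest of the 8 and collagen 4 was the highest. The Psmb10 difference was -0.000108 ± 8.91e-05 (SE), with an exact permutation p of 0.314.

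**Figure D1:**
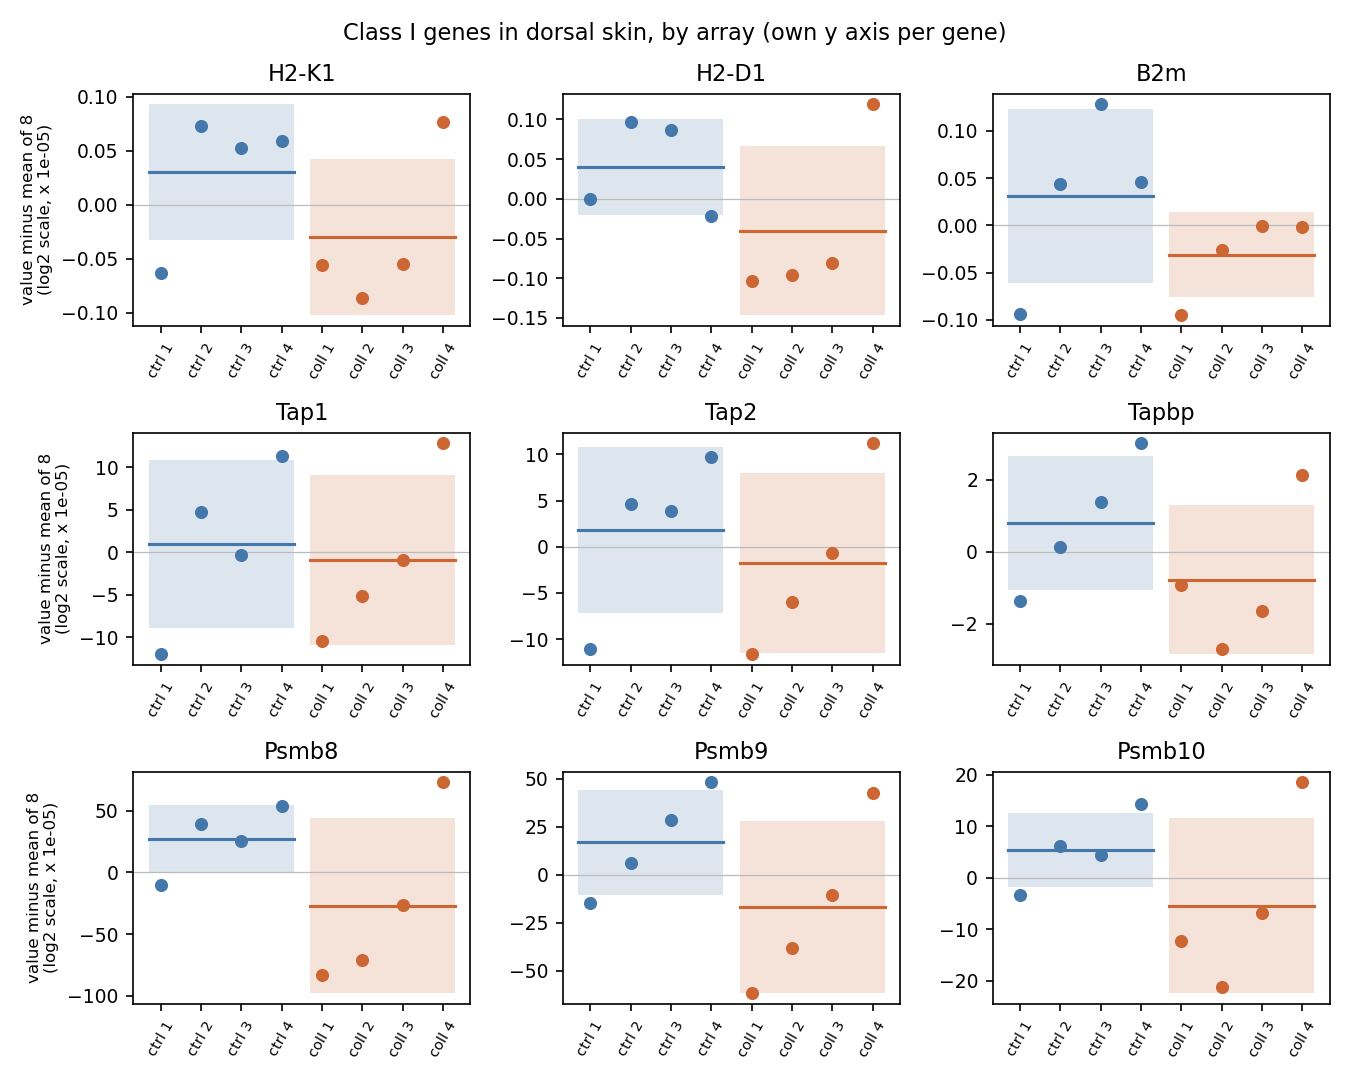
Value of each of the 9 class I genes in each array, as the deposited log2 value minus the gene's mean over the 8 arrays (in units of 1e-05, a separate y axis per gene), with lines at the diet means and bands of 1 SD (n = 4 per diet; ctrl, control; coll, collagen). Collagen 4 lies above every control array for H2-K1, H2-D1, Tap1, Tap2, Psmb8 and Psmb10, and the diets overlap for all 9 genes; after median centring only Psmb8, Psmb9 and Psmb10 keep the lower collagen mean, and Psmb10 loses it with quantile normalization.

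Collagen 4 thus stood apart from the other collagen arrays in most of these genes. As a mean z value over the 9 genes (each gene scaled to its own mean and SD over the arrays), the control arrays stood at -0.69, 0.56, 0.67 and 0.92. The collagen arrays stood at -1.12, -1, -0.44 and 1.09. Collagen 4 was therefore the highest of all 8 arrays, and control 1 lay among collagen 1 to 3. Without collagen 4 the Psmb8 difference was -0.000873, with an adjusted p of 0.526 by limma, and that of Psmb10 was -0.000189, with an adjusted p of 0.528. That of H2-D1 was then -1.33e-06, adjusted p 0.556, and that of Psmb9 -0.000537, adjusted p 0.557, again by limma. Leaving out collagen 1 or collagen 2 made these 4 differences smaller. Without collagen 1, Psmb8 had -0.000352 and Psmb9 -0.00019, and without collagen 2, Psmb10 had -5.6e-05. No gene of the 18193 passed the adjusted threshold without collagen 4, and 1552 had an unadjusted p under 0.05.

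The further probe sets gave much the same picture for the chains and a different one for Tap1. Of all 26 probe sets, 22 had a lower mean with collagen, beside 46.7% of all probe sets, and 0 passed an adjusted p of 0.05 by limma over the 45037 (0%). The 2 probe sets of B2m followed each other over the arrays (r = 0.909), as did the 2 of Psmb8 (r = 0.84), while those of Tapbp were less close (r = 0.59). The 4 probe sets of H2-K1 had a median r of 0.627 between them, from 0.0364 to 0.963. The 9 of H2-D1 had a median of 0.596, from -0.334 to 0.984, with 30 of 36 pairs above 0. These correlations are over the same 8 arrays and are given as descriptions.

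The lowest p of an H2-D1 probe set came from 1426324_at, one of the 2 that do not carry the _x_at ending. It read 10.976572, 10.976952, 10.976736 and 10.976268 in the control arrays and 10.975919, 10.976181, 10.976112 and 10.976605 in the collagen arrays. The 3 lowest arrays were again collagen 1, 2 and 3, and collagen 4 lay among the control arrays. Its difference was -0.000428 ± 0.000196 (SE), with an exact permutation p of 0.0857. Both the spread and the difference of this probe set were far wider on the deposited scale than those of the H2-D1 probe set with the highest mean.

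Tap1 is the exception among the genes with several probe sets. Its further 3 probe sets had means between 6.96 and 7.38, all below the 8.193 at which probe set means had their median, and the pairs among its 4 had a median r of -0.137, from -0.647 to 0.371. The smallest unadjusted limma p of the 26 (0.06) came from its dimmest probe set, 1420274_at. This probe set was higher with collagen by 8.57e-07 ± 3.77e-07 (SE), with an exact permutation p of 0.114. The brightest Tap1 probe set followed Tap2 at r = 0.979, so the further 3 did not share the pattern of either gene. Tap2, Psmb9 and Psmb10 have a single probe set each.

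**Figure D2:**
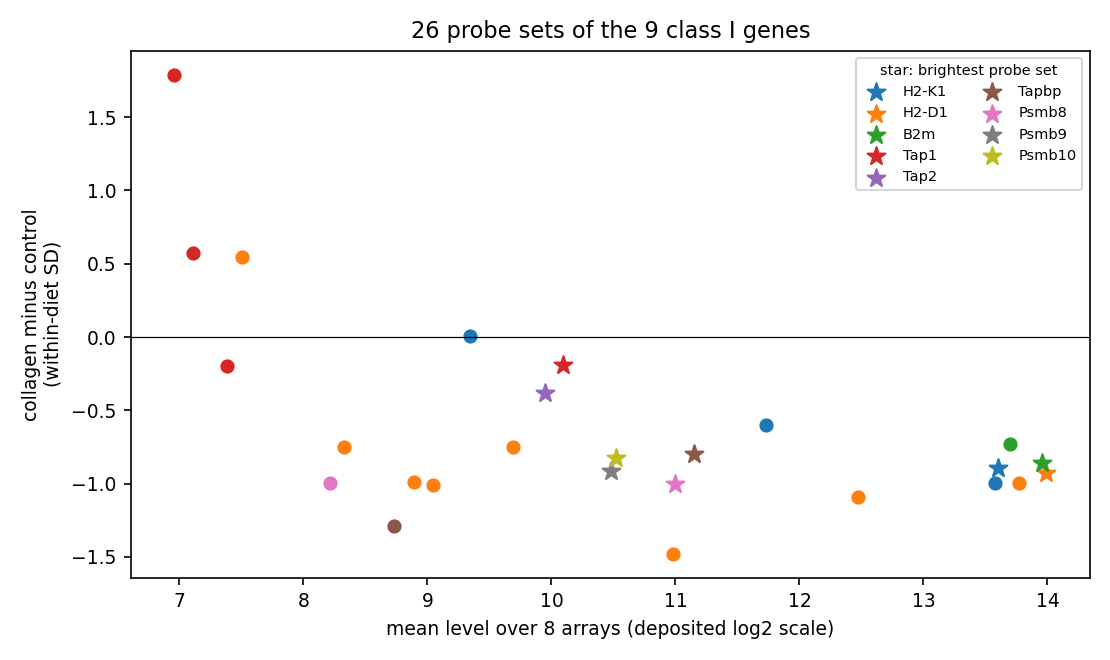
Difference between diets (collagen minus control, in within-diet SD) against mean level (deposited log2 scale) for the 26 probe sets of the 9 class I genes, coloured by gene, with a star for the brightest of each gene. Of the 26, 22 lie below 0; the 4 above it are 2 dim probe sets of Tap1, 1 of H2-D1 and 1 of H2-K1 at nearly 0.

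Over the 8 arrays most of the class I genes varied together in the values as deposited, and the median pairwise r was lower after rescaling. It was 0.677 with median centring. Centring shifts every gene of an array by the same amount, and this shared shift enters r. The SE of the H2-K1 difference was 5.09e-07 as deposited and 7.96e-05 when centred, so its centred profile is mostly the shift. The 0.677 therefore cannot tell how far the genes themselves varied together. With quantile normalization the median r was 0.293, over the 15 pairs left, since that scaling sets H2-K1, H2-D1 and B2m equal in all arrays. All further values of this part are from the deposited scale. Among the 36 pairs of the 9 genes the median Pearson r was 0.839 and the lowest 0.497, and 22 pairs (61.1%) reached 0.8. Of the 165483528 pairs of all genes 1.72% reached 0.8, and their median was 0.007. Most of all genes were flatter, with a median range of 9.16e-06 against 0.000229 for the 9. Within the gene lists described below, the median pairwise r ran from 0.0842 (peptide loading and trimming) to 0.852 (skeletal muscle markers). In deviations from the diet means the median r over the 36 pairs was 0.828 and all 36 were positive. Tests were exact permutation tests over the 40320 pairings, two-sided, with Benjamini-Hochberg adjustment over the 36 pairs. No test was read for the 8 pairs with H2-K1, whose arrays fell into separate sets. Of the other 28 pairs, 17 had an adjusted p under 0.05 by Pearson's r and 16 by Spearman's rho.

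**Figure D3:**
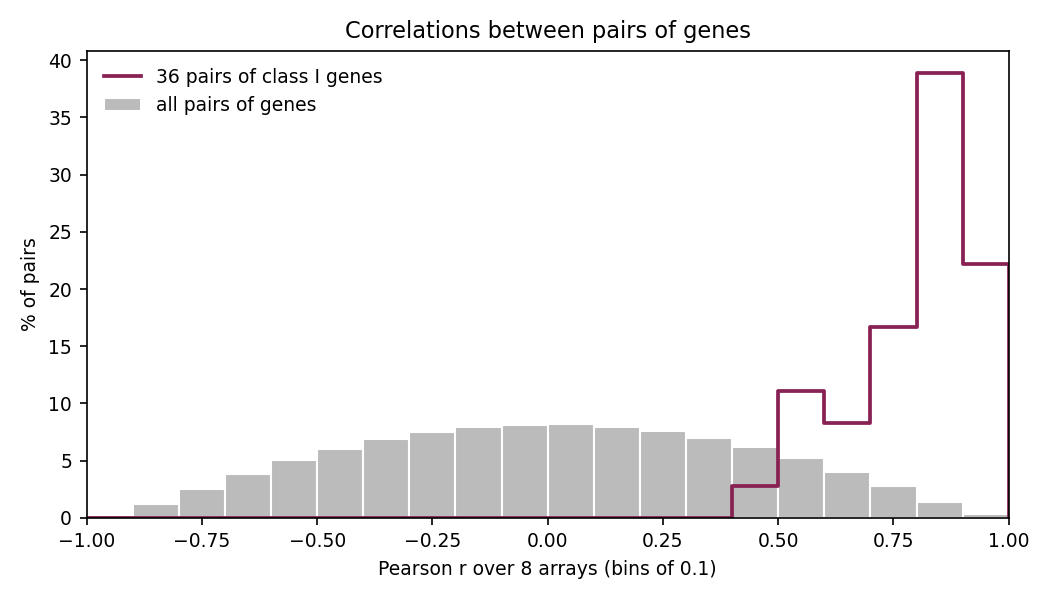
Share of gene pairs (%) by Pearson r of the deposited values over the 8 arrays in bins of 0.1, for the 36 pairs of class I genes (line) and for all pairs of the 18193 genes (grey bars). The class I pairs start at 0.497 and most lie above 0.8, while all pairs centre near 0.

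The closest pair was Tap1 and Tap2, the paired chains of the transporter (r = 0.979, rho = 0.976, exact permutation p = 0.000298 for r, adjusted 0.00655). Within the immunoproteasome, Psmb8 and Psmb10 had r = 0.964 (rho = 0.976, exact permutation p = 0.000372, adjusted 0.00655) although they lie on different chromosomes. Psmb8 and Psmb9 had r = 0.953 (rho = 0.929, exact permutation p = 0.000546, adjusted 0.00655). Tap1 and Psmb9, which start 225 bases apart, had r = 0.853 (rho = 0.881, exact permutation p = 0.00856, adjusted 0.0271), lower than the pairs above. The other adjacent pairs in the run Psmb9, Tap1, Psmb8 and Tap2 had r = 0.835 (Tap1 and Psmb8) and 0.879 (Tap2 and Psmb8). Tap1 with Tap2 and Psmb8 with Psmb9, closer in r, are in the same run with another gene between them. Whether these correlations differ from each other was not tested.

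By role, the 3 immunoproteasome pairs had r between 0.909 and 0.964, the 3 pairs of Tap1, Tap2 and Tapbp between 0.797 and 0.979, and the 3 pairs of the chains between 0.561 and 0.843. B2m followed the rest least, with r from 0.497 (Psmb10) to 0.74 (Tap2) and no pair past the adjusted threshold by Pearson's r; by Spearman's rho it passed with Psmb9 (rho = 0.786, exact permutation p = 0.0279, adjusted 0.0457). H2-D1 passed with Psmb8 (r = 0.85, rho = 0.857, exact permutation p = 0.0135, adjusted 0.0271) and with Psmb10 (r = 0.788, rho = 0.833, exact permutation p = 0.025, adjusted 0.0392). With an array left out, these ran from 0.794 to 0.96 for Psmb8 and from 0.698 to 0.923 for Psmb10, each lowest without collagen 4 and highest without control 4. Among the control arrays alone H2-D1 had r = 0.482 with H2-K1 and 0.568 with B2m. It did not follow the other 6 genes there (r from -0.18 to 0.178). Control 4, the lowest control array for H2-D1, was the highest for Tap1, Tap2, Tapbp, Psmb8, Psmb9 and Psmb10. In the collagen arrays collagen 4 was the highest for H2-D1 and for all 6 of these. H2-D1 did not pass with Tap1 (r = 0.575, rho = 0.643, exact permutation p = 0.144, adjusted 0.152). The median r with the other 8 genes was 0.603 for B2m, 0.694 for H2-D1 and 0.864 for H2-K1, so the chains of the class I molecule did not share a single closeness to the rest.

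Leaving out the 2 arrays farthest from the median of the first gene of a pair gave a median r of 0.706 over the 28 pairs. It was 0.966 for Tap1 and Tap2, 0.986 for Psmb8 and Psmb10, 0.876 for Psmb8 and Psmb9, 0.669 for Tap1 and Psmb9, and 0.75 and 0.665 for H2-D1 with Psmb8 and Psmb10. For Tap1 with Tapbp r went from 0.797 to 0.463, for Tap1 with Psmb10 from 0.82 to 0.539, and for H2-D1 with Tap1 from 0.575 to 0.247. Other pairs rose, Tap2 with Tapbp from 0.821 to 0.949 and Tap2 with Psmb10 from 0.842 to 0.994. The arrays left out depend on which gene is named first, and leaving them out narrows the spread of that gene. These values are therefore descriptions only.

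**Figure D4:**
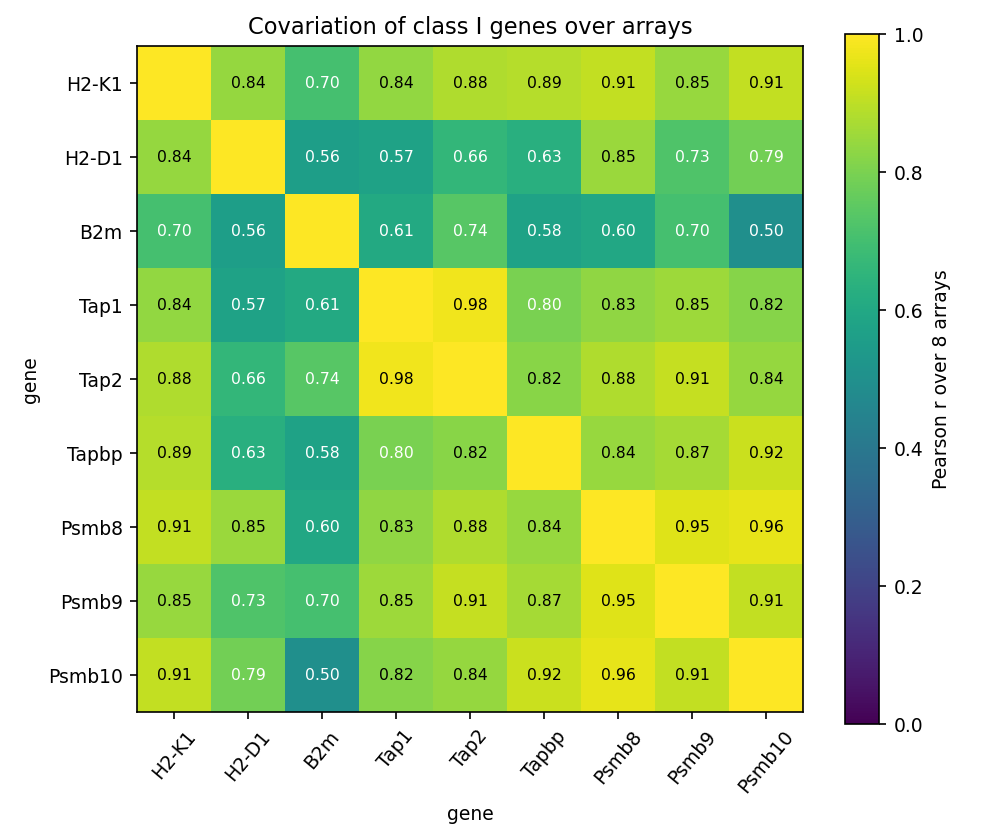
Pearson r of the deposited values over the 8 arrays for each pair of the 9 class I genes (colour scale from 0 to 1, value in each cell). Psmb8, Psmb9, Psmb10, Tap1 and Tap2 form a bright block, between 0.82 and 0.979, and B2m has the lowest values.

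Genes of the same pathway outside the 9 did not all follow them. Genes were placed in lists by their known roles, and for each list the mean z value per array was set against that of the 9 genes; these correlations of scores are descriptions over 8 arrays with shared tissue and processing. Of 24 other class I genes, 13 were measured, 7 lower and 6 higher with collagen, none past the adjusted threshold by limma, and their score had r = 0.497 with that of the 9. H2-Q10, a secreted class I heavy chain, differed by 0.000161 ± 7.7e-05 (SE), unadjusted p 0.0786 by limma. Fcgrt, the neonatal Fc receptor chain that also pairs with beta-2 microglobulin, differed by -0.000497 ± 0.000337 (SE), and H2-M9 by -1.05e-05 ± 1.08e-05 (SE).

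Among genes of peptide loading and trimming, 12 of 13 were measured, 2 lower and 10 higher with collagen, none past the adjusted threshold by limma. Their score had r = -0.42 with that of the 9. Canx, encoding the chaperone calnexin that folds new heavy chains, differed by 8.28e-07 ± 3.72e-07 (SE), unadjusted p 0.0646 by limma. The cytosolic peptidase genes Tpp2 and Lap3 differed by 0.000514 ± 0.000442 and 7.34e-06 ± 7.9e-06 (SE). Calr, encoding calreticulin of the loading complex and named outside the rule, differed by -2.31e-06 ± 2.49e-06 (SE) and had r = 0.636 with the score of the 9, against -0.795 for Canx.

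The standard proteasome and its activators held 19 measured genes of 20, 6 lower and 13 higher with collagen, none past the adjusted threshold by limma. Their score had r = 0.114 with that of the 9, so the array pattern of Psmb8, Psmb9 and Psmb10 was not that of the proteasome as a whole. Psmb2 and Psma6, non-catalytic genes of the standard core, differed by 1.33e-06 ± 7.82e-07 and 2.18e-06 ± 1.41e-06 (SE). Psmb7, the catalytic subunit that Psmb10 replaces, differed by -5.25e-05 ± 3.44e-05 (SE). Named outside the rule for their roles, Psmb5 and Psmb6, which Psmb8 and Psmb9 replace, had r of -0.344 and 0.583 with the score of the 9. Psme1, part of the interferon-inducible proteasome activator, had r = 0.832 with it, while Psma6 had -0.901 and Psme4, another activator, -0.883.

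Interferon signalling and class I regulators varied with the 9 genes most closely of the lists examined (r = 0.926 between scores; 0.909 in deviations from the diet means). Of 23 genes, 21 were measured, 16 lower and 5 higher with collagen, none past the adjusted threshold by limma and 1 at an unadjusted p under 0.05 and lower, where 1.23% of all genes were. With so few, that count is no result about the list. The gene was Irf2, which encodes a factor known mainly as a repressor of interferon response genes, with a difference of -1.6e-06 ± 6.1e-07 (SE) and an unadjusted p of 0.0369 by limma. Stat2, a transducer of type I interferon signals, differed by -1.9e-05 ± 8.65e-06 (SE), and Irf1, an activator of class I genes, by -0.000408 ± 0.000213 (SE). Nlrc5, the class I coactivator, named outside the rule, differed by -4.3e-06 ± 4.9e-06 (SE) and had r = 0.443 with the score of the 9, below the 0.917 of Stat2 and the 0.728 of Irf1.

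Markers of cell types in the skin varied with the class I genes as well. In bulk skin, fewer cells of a type and less RNA per cell cannot be told apart. T and NK cell markers (14 of 16 measured, 7 lower and 7 higher with collagen) scored between -0.7 and 0.44 in 7 arrays and 1.66 in collagen 4, with r = 0.723 to the score of the 9. Zap70, a T cell kinase, differed by -4.25e-06 ± 2.17e-06 (SE), and Gzmb and Prf1, encoding granzyme B and perforin, by 8.59e-06 ± 6.98e-06 and 3.21e-06 ± 3.66e-06 (SE). Among the defining genes, Cd3e had a mean of 8.97 and Cd8a one of 8.106, on either side of the median of probe set means. Their r with the score of the 9 was 0.519 for Cd3e and -0.172 for Cd8a, and that of Cd8b1 was 0.498. So the array in which the class I genes stood highest was also the one with the highest T and NK cell score. The same array was highest in the scores of the other class I genes (0.68), regulators (0.82), class II genes (0.69) and macrophage and dendritic cell markers (1.04).

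MHC class II genes (11 of 12 measured, 8 lower and 3 higher) had r = 0.877 with the score of the 9. The rule named H2-Ob and H2-Oa, which encode the chains of H2-O, a modulator of class II peptide loading, and differed by -0.00149 ± 0.000395 and -1.01e-05 ± 2.85e-06 (SE), unadjusted p 0.00795 and 0.0108 by limma, adjusted 0.999 for both. It also named H2-Eb1, a class II beta chain, which differed by 0.625 ± 0.206 (SE), adjusted p 0.999 by limma, far more than any of the 9. Its arrays fell into separate sets. Control 1 to 3 lay between 9.324 and 9.352, and control 4 (10.179) lay with the 4 collagen arrays (10.053 to 10.277). H2-Eb1 had r = -0.135 with the score of the 9. H2-Ob is the coding gene next to Tap2, and its r with that score was 0.378.

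Macrophage and dendritic cell markers (10 of 10 measured, 8 lower) scored between -0.21 and 0.83 in the control arrays and between -1.32 and 1.04 in the collagen arrays, with r = 0.801. Endothelial markers (8 of 8 measured, all 8 lower) scored between -0.25 and 0.79 and between -1.35 and 0.46, with r = 0.872. Dermal markers (8 of 8 measured, all 8 lower) had r = 0.645 and epidermal markers (9 of 9 measured, 2 lower) r = -0.558. The array high in the class I genes among collagen arrays was thus also high in immune, endothelial and dermal markers. The part of these cells in the class I values was not tested.

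Skeletal muscle markers (15 of 15 measured, 14 lower) scored between -0.6 and 1.24 in the control arrays and between -1.47 and 0.19 in the collagen arrays, with r = 0.582 to the score of the 9. The difference between the 3′ and 5′ Gapdh control probe sets, a sign of RNA integrity, was 0.2904, 0.2898, 0.2898 and 0.2898 in the control arrays and 0.2906, 0.29, 0.2901 and 0.2901 in the collagen arrays (exact permutation p 0.343). Control 1 and collagen 1, both low in the class I genes, had the highest values. This measure had r = -0.702 with the class I score and r = -0.941 with the muscle score. With either the muscle score or the Gapdh measure as a covariate, 7 of the 9 genes stayed lower with collagen and Tap1 and Tap2 turned above 0. The differences of all 7 were smaller with either covariate, that of H2-D1 only slightly with the muscle score (-7.92e-07 against -8.02e-07). Psmb8 had -0.000315 with the Gapdh measure and -0.000324 with the muscle score, Psmb9 -0.000143 and -0.000129, and B2m -1.07e-07 and -1.04e-07. The median r among the 36 pairs was 0.795 after the muscle score was taken out.

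**Figure D5:**
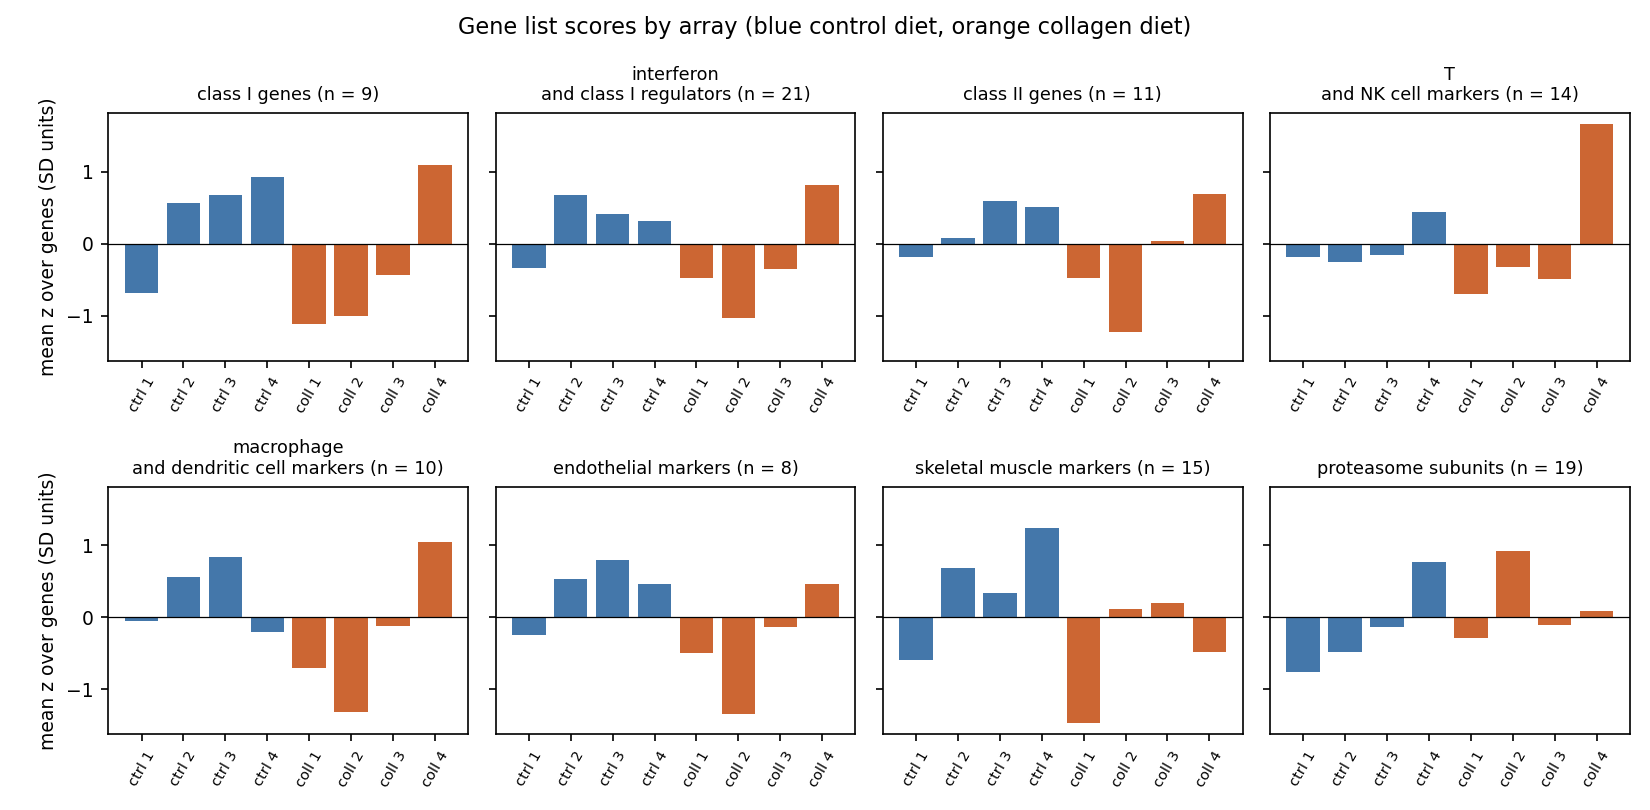
Mean z value per array (in SD units, each gene scaled over the 8 arrays) for the 9 class I genes and 7 gene lists, with bars from 0, n the number of genes measured, blue for control and orange for collagen. Collagen 4 is highest for the class I genes (1.09), their regulators (0.82), the class II genes (0.69) and the T and NK cell markers (1.66). It is also highest for the macrophage and dendritic cell markers (1.04), while the endothelial markers, proteasome subunits and muscle markers are highest in other arrays.

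The genes most like the 9 were sought among 18182 others, of which 881 (4.85%) had r of 0.8 or more with their mean z value and 725 had -0.8 or less, around a median of 0.0522. Among genes at or above the median level, the 6 closest were S100a13 (r = 0.981), Slc12a7 (0.98), Ppp2r5a (0.979), Rtl8c (0.977), Lipe (0.975) and Tmem9 (0.975). S100a13 encodes a calcium-binding protein, Slc12a7 a potassium chloride cotransporter, Ppp2r5a a regulatory subunit of a phosphatase and Lipe hormone-sensitive lipase. None of the 6 was among the pathway or marker lists. S100a13 read 10.661221, 10.661236, 10.661244 and 10.661241 in the control arrays and 10.661213, 10.661215, 10.661219 and 10.661246 in the collagen arrays. It had the order seen in the class I genes, with collagen 4 high and control 1 beside collagen 1 to 3. The likeness rests on 8 arrays and was searched over all genes, so it is a description only.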

How the data were processed

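Total RNA from powdered frozen dorsal skin was biotin-labelled for arrays of 1 colour, per the protocols in the labels. The deposited table of the authors holds log2 values, a scale read from the values themselves. R 2.7.2 is named in the submitters' processing notes. How probes were summarised and normalised was not given in the sources used here. Without detection calls, the signal above background could not be judged. Values were used as deposited, without the 64 control probe sets.

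A single symbol was given by the platform annotation for 34945 of 45037 probe sets and several for 932. Probe sets and the 18193 genes (highest mean over all arrays) were fitted in limma 3.58.1 under R 4.3.3 (lmFit and eBayes, two-sided, no covariate, Benjamini-Hochberg, threshold 0.05), after multiplication of all values by 1e+06, which changes no t statistic. Prior degrees of freedom were 0.488 for genes. Exact permutation tests used all 70 assignments or 40320 pairings. The R package data.table (version 1.17.8), numpy 2.4.6 and matplotlib 3.10.9 were also used.

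On simulated data with 200 of 18191 genes changed in the comparison of collagen with control, the fit found 1.34%, 28.2% and 92.4% of those shifted by 2, 4 and 8 SD (the SD within diets), and made 4.4 false calls per run. Precision is limited by the 4 arrays per diet.

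The genes and lists were chosen with earlier results of these data known. The rule named the 9 genes, the 3 genes with the smallest p in each of 6 lists (other class I, loading, proteasome, regulators, T and NK cells, class II) and the 6 genes most like the 9 at or above the median level. Other genes are named for their roles or as tissue markers. Alternatives were the scaling, array weights, variance models, leaving out dim probe sets, the replicate block, the Gapdh and muscle covariates, the choice of probe set and each left-out array.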

Additional observations from a re-analysis of the deposited data

Results flagged for a closer look

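In 52 checks of the 26 probe sets within each diet, 4 held an array far from the other 3, where chance gives about 1 in 20. In the H2-K1 probe set 1425336_x_at, control 1 was lowest at 13.6024274. In the H2-D1 probe set 1425545_x_at, collagen 4 was highest at 13.9863056. In the Tap1 probe set 1448177_at, control 2 was lowest at 7.37969772. In the Psmb8 probe set 1444619_x_at, control 2 was highest at 8.216358. Control 1 and collagen 4 are the arrays that lay with the other diet in the mean over the 9 genes.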

How the results depend on the processing

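No setting called any of the 9 genes or any of the 18193 at an adjusted p under 0.05 by limma; unadjusted calls ran from 72 with median centring to 1552 without collagen 4 (1470 with array weights, 1113 without control 1), beside 635. Psmb8 and Psmb9, which had the largest differences of the 9 as deposited, stayed lower with collagen in all 19 settings tried for them. The count of genes lower with collagen was 3 of 9 with median centring and 4 of 9 with quantile normalization, which sets the brightest probe sets equal in all arrays and so leaves no difference for H2-K1, H2-D1 and B2m; it was 8 to 9 with an array left out. The median pairwise r was 0.293 with quantile normalization (15 pairs) and 0.677 with median centring, which includes the shift that all genes of an array share. It was 0.795 with the muscle score taken out, 0.793 from the mean of a gene's probe sets and 0.809 from the probe set of widest range. With an array left out it ran from 0.794 (without collagen 4) to 0.859. Median centring turned the differences to 5.46e-05 for H2-K1, 5.44e-05 for H2-D1, 5.46e-05 for B2m, 3.65e-05 for Tap1, 1.96e-05 for Tap2 and 3.94e-05 for Tapbp. Quantile normalization turned Tapbp to 0.000127, Psmb10 to 6.29e-05, and the probe sets 1427651_x_at to 3.4e-05, 1425614_x_at to 5.88e-05, 1448177_at to 6.75e-06, 1450378_at to 0.000163 and 1444619_x_at to 0.000101. The Gapdh covariate turned Tap1 to 4.15e-05 and Tap2 to 2.47e-05, the muscle covariate to 5.05e-05 and 3.03e-05, and the probe set of widest range gave 4.18e-08 for H2-K1. With an array left out, Tap1 ran from -6.46e-05 to 1.6e-05, probe set 1450534_x_at from -2.95e-06 to 3.49e-06 and 1448177_at from -1.77e-07 to 1.34e-07. Median centring raised all differences by the same amount, so the genes it turned were those with deposited differences smaller than that amount. The cause of the other reversals was not tested.

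Deviations of arrays with the same replicate number had r of 0.362, 0.0486, 0.215 and 0.0111 for numbers 1 to 4. Numbers 1 and 3 correlated best with their own number in both diets and numbers 2 and 4 did not, so the numbers were not taken to pair the arrays. With the replicate block limma called 0 of 18193 genes (1110 at an unadjusted p under 0.05) and all 9 class I genes stayed lower, Psmb9 with an adjusted p of 0.766.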
